A study of Mus musculus with 6 samples.

Results

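Translation initiation factor genes were examined after a combined particle and light treatment of 4T1, a cell line of mouse mammary carcinoma. Members were chosen by name: every protein-coding gene of the GENCODE M21 annotation whose symbol begins with Eif followed by a digit from 1 to 6, leaving out the eIF2 alpha kinases (Eif2ak). This gave 51 genes of the 56748 in the deposited files, and all 51 had a value in every library. The 3 control samples were 4T1 cells labelled wild type and collected at 48 h. The 3 treated samples were the same line, also labelled wild type and collected at 48 h, given 125 µg/mL of Au/MoS2/Bi2S3 particles (gold, molybdenum disulfide and bismuth sulfide) overnight and then near-infrared (NIR) light for 8 min. Particles without light, and light without particles, were not analysed here. The labels describe RNA pooled from cells of 3 individuals. They leave unsaid if samples of 1 group were separate cultures, so the p-values cover only the spread among these 6 samples, and that spread may be technical.

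Initiation factors bring the small ribosomal subunit, the initiator tRNA and the mRNA together. eIF1, eIF1A and eIF3 prepare the small subunit, eIF2 carries the initiator tRNA as a complex with GTP, and eIF2B recharges eIF2 with GTP. The eIF4 factors bind the mRNA cap and unwind the leader, eIF5 and eIF5B act at start codon selection and subunit joining, and eIF6 keeps the large subunit apart until it is needed. The 4E-binding proteins hold eIF4E away from eIF4G, and mTOR releases it by phosphorylating them.

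Levels are FPKM (fragments per kilobase of exon, scaled between libraries), as deposited, and 3 values of a group are always listed in the order of replicate 1, 2 and 3. The deposited scaling keeps the typical gene level between groups, so higher and lower are relative to the typical gene. Recovered reads at genes ranged from 32.6 to 38.1 M (1e6) per library. The groups stood apart in other measures: 15829 to 18988 genes were above 0 in controls and 21821 to 22088 in treated libraries, and the FPKM summed to between 450409 and 532583 and between 235757 and 241953. Control 3 had the fewest genes and the highest sum. The control libraries varied more than the treated ones: the median SD of the members on the log2(FPKM + 1) scale was 0.29 in controls and 0.06 in treated samples, and 43 of the 47 members tested had the smaller SD in treated samples. The labelled epithelial origin was checked on 7 markers. Krt8, Krt18 and Krt19 were between 123.0 and 973.1 FPKM in every library, and Cdh1, Cldn4 and Cldn7 were under 1 FPKM throughout. Their summed level was 1536 to 2262 FPKM in controls and 741.4 to 777.0 in treated samples. All 4 that were tested were lower by limma: Epcam 5.57-fold in mean FPKM, Krt19 4.08-fold, Krt18 3.01-fold and Krt8 1.37-fold. Of 8 leukocyte markers, 7 were under 1 FPKM in every library, among them Ptprc, Adgre1 and Itgam, whereas Cd68 stood between 77.0 and 444.1 FPKM. Of 7 fibroblast markers, 4 or 5 were under 1 FPKM per library. The summed fibroblast level was 114.1 to 756.6 FPKM in controls and 30.6 to 33.0 in treated samples, nearly all of it Col1a1, with Dcn, Lum, Col1a2 and Thy1 at or near 0. Of 5 endothelial markers, 4 or 5 were under 1 FPKM per library, with sums between 0.762 and 1.88 FPKM. The part of these markers in the results below was not tested. In bulk samples, fewer cells of a type and less RNA per cell cannot be told apart.

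On the deposited scale, treated cells had lower transcripts of several eIF3 subunits, of eIF1 and of the unwinding cofactors eIF4B and eIF4H. The calls of Eif1, Eif4b and Eif4h were lost with quantile normalization. Treated cells had higher transcripts of the 4E-binding protein gene Eif4ebp2 and of Eif1ad. By limma, 19 of the 47 members that passed the filter on low values were lower, 7 were higher and 21 were not called (adjusted p under 0.05). Among all 11118 genes tested 56.1% were called, 28.3% lower and 27.9% higher, and the members' share of 55.3% lies near that background. Scaling each library to the same FPKM total turned the members' split to 5 lower and 22 higher, and moved the median log2 fold change of all genes to 0.80. In that setting 71.2% of all genes were called, 6.62% lower and 64.6% higher. Quantile normalization gave 8 members lower and 16 higher, beside 24.5% and 27.2% of all genes (51.7% called). The groups did not overlap for 33 members, with treated samples below in 24 and above in 9, against 67.7% of all genes (34.1% below and 33.6% above). The median log2 fold change of the members was -0.36, beside -0.01 over all genes tested. It was 0.55 with library size scaling and 0.15 with quantile normalization, where the medians of all genes were 0.80 and 0.03.

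The genes tested were divided by mean level into 10 equal classes, and 23 of the 47 members belong to the most abundant class. There 14 members were lower and 0 higher, with a median log2 fold change of -0.61. The whole class had a median of -0.93, with 67.2% of its genes lower and 2.97% higher. Measured against the median of its own class, a member lay above it in 25 cases and below in 22. Called members that were higher started from a median of 12.7 FPKM in controls and those that were lower from 104.2 FPKM. Their median exon lengths were 5784 and 3702 nt, and their GC contents 43.2% and 49.8%. Level, length and GC content thus differ between these sets, and their part in the calls was not tested gene by gene. Removing the trends with GC content, length and level left 13 members lower and 10 higher, beside 22.9% and 22.3% of all genes (45.2% called).

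**Figure D1:**
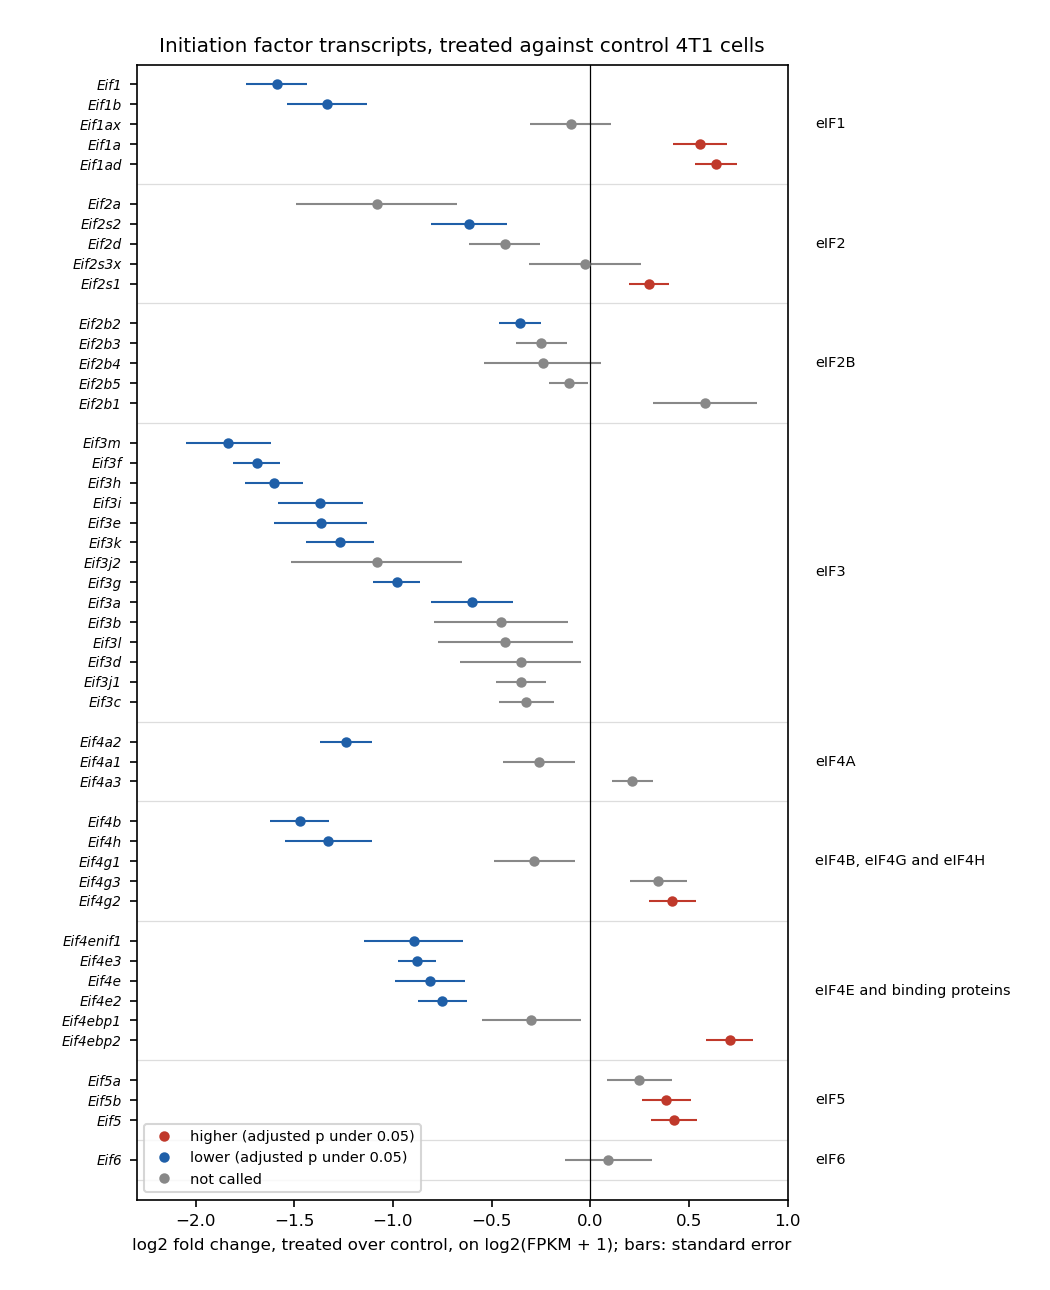
Log2 fold changes (treated over control, on log2(FPKM + 1), with standard error) of the 47 tested members by factor, with 3 samples per group. Red points are called higher, blue points lower and grey points not called by limma at an adjusted p under 0.05, and the eIF3 block lies wholly left of 0 on the deposited scale, from -1.83 to -0.32.

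Across 4 members the call and its direction held under all 14 alternatives of scaling, filter, weighting and left-out library. Eif3f and Eif3m were lower throughout, with log2 fold changes between -1.72 and -0.63 and between -2.05 and -0.83. Eif1ad and Eif4ebp2 were higher throughout, between 0.44 and 1.48 and between 0.65 and 1.65. The other calls were lost or turned in at least 1 alternative. With library size scaling Eif1, Eif3h and Eif4b also remained lower.

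The eIF1 group holds factors that scan for the start codon. Eif1 (chromosome 11, 100319885 to 100322096, GRCm38), whose product keeps the ribosome from settling on wrong codons, stood at 738.5, 767.7 and 600.2 FPKM in controls. Its values were 226.8, 225.5 and 241.5 FPKM in treated samples. Every treated sample lay below every control, a 3.04-fold difference in mean FPKM (log2 change -1.59 ± 0.15 SE, limma adjusted p = 0.000556). Eif1 was not called with quantile normalization (-0.42, limma adjusted p = 0.0648). The annotation holds pseudogenes of Eif1, so its reads are uncertain where they could be split. Its paralog Eif1b fell from 50.2 ± 13.7 to 18.8 ± 0.741 FPKM (SD, n = 3), but was not called with library size scaling (-0.37).

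Eif1ad (chromosome 19, 5366741 to 5371526), which encodes a protein with an eIF1A-like domain, had 4.59, 3.90 and 4.37 FPKM in controls and 7.09, 6.86 and 7.72 in treated samples. All treated samples were higher (log2 change 0.64 ± 0.11 SE, limma adjusted p = 0.0034). It shares 428 exonic bases with Banf1 on the other strand, and the strand setting is not given in the sources used here, so its level is uncertain. The genes of eIF1A itself, which stabilises scanning, are Eif1a and Eif1ax. Eif1a rose from 12.7 ± 1.91 to 19.0 ± 1.10 FPKM, a call lost without treated 2 or treated 3 (limma adjusted p = 0.0576 and 0.0688). The X-linked Eif1ax stood at 17.4, 20.3 and 11.6 FPKM in controls and at 13.8, 15.5 and 15.4 in treated samples. Its groups overlapped (log2 change -0.10, limma adjusted p = 0.702), and without control 3 it was called lower (-0.32, limma adjusted p = 0.0404).

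Among the eIF2 subunit genes, the alpha subunit rose and the beta subunit fell, each by less than 1 log2 unit. Eif2s1, which encodes the alpha subunit that stress kinases phosphorylate, stood at 18.7, 20.2 and 18.2 FPKM in controls. Its values were 22.6, 23.8 and 24.5 FPKM in the treated libraries, above every control (log2 change 0.30 ± 0.10 SE, limma adjusted p = 0.0436). The call was lost without control 1 or any single treated library (limma adjusted p between 0.11 and 0.167). Eif2s2, the beta subunit, had 58.7, 73.3 and 44.4 FPKM in controls and 35.1, 37.5 and 39.4 in treated samples. Its log2 fold change was -0.61 (limma adjusted p = 0.0356). That call did not hold without control 1 or any single treated library (limma adjusted p between 0.0847 and 0.117), and the value was 0.36 with library size scaling.

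Eif2s3x, the X-linked gene of the gamma subunit, had 38.1, 41.1 and 19.6 FPKM in controls and 30.7, 29.0 and 32.8 in treated samples. The treated values lay inside the control range (log2 change -0.03, limma adjusted p = 0.94), and without control 3 the gene was called lower (-0.35, limma adjusted p = 0.0185). Its Y-linked copy Eif2s3y was listed at 0 in all 6 libraries, where 3 reads would give at most 0.0308 FPKM. Eif2a, a separate initiation factor that is not the alpha subunit, ranged from 26.1 to 85.5 FPKM in controls and from 22.1 to 25.3 in treated samples. It was not called on all samples (log2 change -1.08, limma adjusted p = 0.062), and was called without control 3 (-1.55, limma adjusted p = 0.00102). Eif2d, which can deliver initiator tRNA without eIF2, had a log2 fold change of -0.43 (limma adjusted p = 0.0816), and -0.63 without control 3 (limma adjusted p = 0.00116).

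Of the 5 genes of eIF2B, the exchange factor of eIF2, 1 was lower and 4 were not called, beside 28.3% of all genes lower. With library size scaling all 5 were called higher, as were 64.6% of all genes. Eif2b2, the beta subunit, had 53.5, 54.5 and 57.0 FPKM in controls and 39.9, 44.3 and 44.2 in treated samples. No treated sample reached a control (log2 change -0.36 ± 0.11 SE, limma adjusted p = 0.0292). Without control 1 or any single treated library it was not called (limma adjusted p between 0.0692 and 0.136), and it was called higher with library size scaling (0.63), quantile normalization (0.36) and the trend removed (0.40). Eif2b5, the catalytic epsilon subunit, lay close between groups, at 23.0, 21.8 and 22.0 FPKM in controls and 19.5, 20.7 and 21.4 in treated samples (log2 change -0.11 ± 0.10 SE, limma adjusted p = 0.373). Eif2b1, the alpha subunit, had 8.70, 12.6 and 5.51 FPKM in controls and 12.5, 13.4 and 13.8 in treated samples, so that control 2 overlapped treated 1. It was called higher without control 2 (0.84, limma adjusted p = 0.0113). Eif2b3 and Eif2b4, the gamma and delta subunits, had log2 fold changes of -0.25 and -0.24, and neither was called. Eif2b3 was called lower without control 2 (-0.35, limma adjusted p = 0.0306) and higher with library size scaling (0.50, limma adjusted p = 0.00627).

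eIF3 is the largest initiation factor, a scaffold on the small subunit built of a core of PCI and MPN domain subunits and a set of peripheral ones. Of its 14 genes, 8 were lower, 0 higher and 6 not called, with a median log2 fold change of -1.03 on the deposited scale and -0.14 with library size scaling. Of all genes 28.3% were lower, and 67.2% in the most abundant class, which holds 11 of the 14. Library size scaling left 3 lower (Eif3f, Eif3h and Eif3m), 2 higher (Eif3c and Eif3j1) and 9 not called. Eif3m (chromosome 2, 104999656 to 105017080), a core subunit, had 348.4, 244.0 and 418.7 FPKM in controls. Its values were 85.4, 94.6 and 94.9 FPKM in treated samples, all far under the lowest control. The difference was 3.68-fold in mean FPKM (log2 change -1.83 ± 0.22 SE, limma adjusted p = 0.00102), the largest fall among the members on the deposited scale.

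Eif3f (chromosome 7, 108934417 to 108942951), an MPN subunit, had 373.6, 340.2 and 340.7 FPKM in controls and 106.0, 106.2 and 112.3 in treated samples. The control and treated values were each tight (log2 change -1.69 ± 0.12 SE, limma adjusted p = 0.000278). Eif3h, the other MPN subunit, was the most abundant member in every control, at 1017.6, 1230.3 and 1053.3 FPKM. It stood at 352.1, 356.6 and 372.1 FPKM in treated samples, 3.05-fold lower in the mean (log2 change -1.60). Eif3h was not called with quantile normalization (-0.25) or with the trend removed (-0.29).

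The core subunit gene Eif3e, whose locus is a known integration site of mouse mammary tumour virus, had 194.9, 204.2 and 116.1 FPKM in controls and 60.2, 64.2 and 67.8 in treated samples. The groups stood apart although control 3 was low (log2 change -1.37 ± 0.24 SE, limma adjusted p = 0.0039). The call was lost with library size scaling (-0.38) and with quantile normalization (-0.45). Eif3i and Eif3k were 2.70-fold and 2.46-fold lower, and Eif3g fell from 104.2 ± 8.10 to 52.2 ± 3.02 FPKM. None of these 3 was called with library size scaling, at -0.39, -0.28 and 0.01. Nor were they with quantile normalization, at -0.66, -0.36 and -0.14 for Eif3i, Eif3k and Eif3g. With the trend removed Eif3i was still called lower (-0.91), and Eif3k and Eif3g were not called (-0.55 and -0.12). Eif3a, which encodes the largest subunit, had 73.7, 53.4 and 93.0 FPKM in controls and 45.2, 47.0 and 48.6 in treated samples (log2 change -0.60, limma adjusted p = 0.0484). That call was lost without control 1, control 3 or any single treated library (limma adjusted p between 0.0537 and 0.137), and the value was 0.38 with library size scaling.

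Eif3c, Eif3b, Eif3d, Eif3l and Eif3j1 were not called on the deposited scale, with log2 fold changes between -0.45 and -0.32. Eif3c, a core subunit, was at 170.8, 179.5 and 140.5 FPKM in controls and 126.7, 129.0 and 133.7 in treated samples, which do not overlap (log2 change -0.32, limma adjusted p = 0.0881). Eif3d, which can bind the cap of some mRNAs, ranged from 25.9 to 63.5 FPKM in controls around treated values of 30.9 to 32.6. Eif3c was called higher with library size scaling (0.67) and quantile normalization (0.66). Eif3d shares 2151 exonic bases with an antisense model and Eif3j1 shares 1107 with Spg11 on the other strand, so both levels are uncertain. Left-out control libraries changed several of these calls. Without control 3 Eif3c, Eif3d and Eif3l were called lower (-0.43, -0.67 and -0.78), and without control 2 Eif3b and Eif3j1 were (-0.77 and -0.45). With library size scaling Eif3j1 was called higher (0.58, limma adjusted p = 0.0033). Eif3j2 ranged from 2.62 to 6.98 FPKM in controls and from 0.780 to 3.57 in treated samples. It was not called (log2 change -1.08, limma adjusted p = 0.0751), but was without control 2 or treated 3 (-1.38 and -1.50). Eif3j1 and Eif3j2 are close paralogs between which reads may be split, so their separate values are uncertain.

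**Figure D2:**
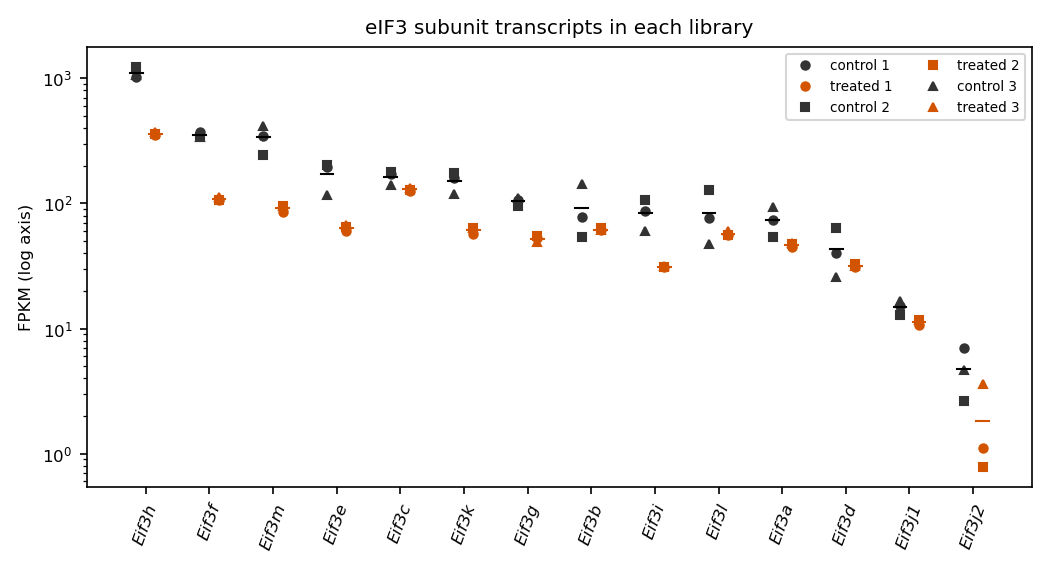
FPKM of the 14 eIF3 genes in each library on a log axis, ordered by control mean, with controls in black, treated samples in orange and the group means as bars. The ratio of the highest to the lowest subunit, leaving out Eif3j1 and Eif3j2, was 23.0 to 40.6 in controls and 11.4 to 11.8 in treated libraries.

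A run of C and T at the 5′ end of an mRNA marks the terminal oligopyrimidine (TOP) class, whose translation follows mTOR and LARP1, and some initiation factors belong to it. Windows around annotated RefSeq starts (GRCm38.p6) were found for 39 of the 51 members. They were searched only on the strand that reads like the mRNA. A run was at least 8 consecutive bases, each C or T, that cover the start or begin or end within 2 bases of it. Such a run was found in 6 of the 39 members (15.4%) and in 7.98% of all genes in the table. A gene was counted if any of its annotated starts had a run. The 6 were Eif2b5, Eif2s3x, Eif2s3y, Eif3f, Eif3l and Eif4enif1. Of these Eif3f and Eif4enif1 were lower, Eif2s3y was listed at 0 and the other 3 were not called, beside 28.3% of all genes lower. Eif4enif1 has several annotated starts, and only 1 of them had a run. That run ended on the last base before the start, so it lies outside the transcript annotated from there. The windows below run from 15 bases before the start to base 15 of the transcript, with the run in capitals, and show 3 members with a run beside the members with the largest fall and the largest rise on the log2(FPKM + 1) scale.
Eif3f (chr7:108934400-108934429, plus strand): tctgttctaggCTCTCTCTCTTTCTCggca
Eif3l (chr15:79075208-79075237, plus strand): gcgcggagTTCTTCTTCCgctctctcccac
Eif2s3x (chrX:94212637-94212666, minus strand): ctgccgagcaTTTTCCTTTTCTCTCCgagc
Eif3m (chr2:105017013-105017042, minus strand): ttttccggtcggcgtgtttctggatcggag
Eif4ebp2 (chr10:61452655-61452684, minus strand): ggtatcgcagcgggacgaccgggcgagagc
The run is present in Eif3f, with a log2 fold change of -1.69, and in Eif2s3x, with -0.03. It was not found in this window of Eif3m. A match is a string of letters near an annotated start and not a measured start site.

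The eIF4A helicases unwind the mRNA leader. Eif4a1, the main form, had 255.0, 295.3 and 196.2 FPKM in controls and 195.9, 202.3 and 216.5 in treated samples. These overlap (log2 change -0.26, limma adjusted p = 0.261), and the gene was called lower without control 3 (-0.42, limma adjusted p = 0.023) but higher with library size scaling (0.74), quantile normalization (0.79) and the trend removed (0.56). Eif4a2, its close paralog, had 175.2, 144.3 and 144.6 FPKM in controls and 62.6, 63.0 and 68.9 in treated samples, all lower (log2 change -1.24 ± 0.13 SE, limma adjusted p = 0.000743). It was not called with library size scaling or quantile normalization, at -0.25 and -0.33. Both genes hold small nucleolar RNAs inside their annotated exons. Eif4a3, a part of the exon junction complex rather than a classical initiation factor, was at 56.7, 61.3 and 58.6 FPKM in controls and 66.0, 69.9 and 69.3 in treated samples. The treated samples were above every control, but the gene was not called (log2 change 0.21 ± 0.10 SE, limma adjusted p = 0.124). It was called higher with library size scaling (1.20), quantile normalization (1.02) and the trend removed (0.96).

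Both RNA-binding cofactors of eIF4A were lower on the deposited scale. Eif4b (chromosome 15, 102073773 to 102097173) had 652.8, 580.9 and 741.1 FPKM in controls and 231.5, 242.6 and 231.7 in treated samples. Every treated library held well under the lowest control value (2.80-fold in mean FPKM, log2 change -1.47 ± 0.15 SE, limma adjusted p = 0.000621), though it was not called with quantile normalization (-0.33). Eif4h fell from 187.1 ± 55.7 to 71.8 ± 1.49 FPKM, and was not called with library size scaling, quantile normalization or the trend removed (-0.34, -0.37 and -0.50).

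The eIF4G scaffolds link the cap-binding protein to eIF3 and eIF4A. Eif4g1 had 66.0, 57.7 and 98.0 FPKM in controls and 60.0, 58.4 and 58.7 in treated samples. Control 2 lay under all treated values (log2 change -0.28, limma adjusted p = 0.281). It was called higher with library size scaling (0.70) and quantile normalization (0.53). Eif4g2, a shorter relative without the eIF4E-binding part, had 35.1, 33.0 and 28.7 FPKM in controls and 43.5, 41.2 and 45.1 in treated samples. All treated values were higher (log2 change 0.42 ± 0.12 SE, limma adjusted p = 0.0258), a call lost without any single treated library (limma adjusted p between 0.0742 and 0.107). Eif4g3 had a log2 fold change of 0.35 (limma adjusted p = 0.082), and was called without control 2 (0.47, limma adjusted p = 0.0106).

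Genes of cap-binding proteins fell while 1 of the 4E-binding protein genes rose. Eif4e, the cap-binding subunit, had 41.0, 41.1 and 27.5 FPKM in controls and 19.7, 20.4 and 20.0 in treated samples. The treated values were nearly equal and below all controls (log2 change -0.81 ± 0.18 SE, limma adjusted p = 0.0094). The value was 0.15 with library size scaling and -0.35 with quantile normalization, and it was called with neither. Its relatives Eif4e2, a repressor form, and Eif4e3 were 1.75-fold and 2.20-fold lower, and with library size scaling they were at 0.19 and -0.10 and not called. Part of Eif4e3 overlaps an annotated protein-coding model on the same strand. Eif4e1b, known from oocytes, was listed at 0 in all 6 libraries, where 3 reads would give at most 0.0568 FPKM.

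Eif4ebp2 (chromosome 10, 61428491 to 61452661) had 11.8, 14.9 and 12.3 FPKM in controls and 22.4, 21.6 and 21.2 in treated samples. Each treated library exceeded each control (1.67-fold in mean FPKM, log2 change 0.71 ± 0.12 SE, limma adjusted p = 0.00365), the largest rise among the tested members on the log2(FPKM + 1) scale. In mean FPKM Eif1ad rose slightly more, by 1.69-fold. Eif4ebp1, the more abundant paralog, ranged widely in controls, at 116.9, 157.6 and 79.3 FPKM, around treated values of 94.3, 95.2 and 87.0 (log2 change -0.30, limma adjusted p = 0.346). It was called lower without control 3 (-0.55, limma adjusted p = 0.0204). Eif4ebp3 had 0 reads in all controls, which allows up to 0.127 to 0.172 FPKM, and 13, 5 and 3 reads in treated samples (0.389, 0.152 and 0.0911 FPKM). It overlaps a read-through model over 501 exonic bases and was not tested. Eif4enif1, the transporter that carries eIF4E into the nucleus, had 24.4, 16.3 and 33.8 FPKM in controls and 12.5, 11.8 and 12.7 in treated samples. It was lower (log2 change -0.90, limma adjusted p = 0.024), but not without control 1 or any single treated library (limma adjusted p between 0.0682 and 0.0751), and it was 0.05 with library size scaling.

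On the deposited scale 2 of the 3 tested genes of the eIF5 group were called higher and 1 was not called, beside 27.9% of all genes higher. Eif5, the GTPase activator of eIF2, had 8.05, 6.48 and 7.99 FPKM in controls and 10.0, 10.2 and 10.9 in treated samples. All treated libraries were above the controls (log2 change 0.42 ± 0.12 SE, limma adjusted p = 0.0233). Without any single treated library the call was lost (limma adjusted p between 0.0738 and 0.1). The Eif5 call was also lost with the trend removed and with the replicate block. Eif5b, the GTPase of subunit joining, had 8.83, 7.91 and 9.17 FPKM in controls and 10.1, 12.7 and 12.1 in treated samples. It was called higher (log2 change 0.39, limma adjusted p = 0.0375), but not without control 1, control 2, treated 2 or treated 3 (limma adjusted p between 0.0605 and 0.151). It was also not called with no filter, the trend removed, weights per group or the replicate block. It shares 1643 exonic bases with Rev1 on the other strand.

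Eif5a, whose product carries the hypusine modification and acts mainly in elongation and termination, had 354.3, 437.0 and 314.0 FPKM in controls and 438.8, 446.7 and 417.4 in treated samples. It was the most abundant member in every treated library, in place of Eif3h, although control 2 overlapped the treated range (log2 change 0.25, limma adjusted p = 0.243). It was called higher without control 2 (0.38, limma adjusted p = 0.0426), with library size scaling (1.25), with quantile normalization (1.52) and with the trend removed (1.38). Eif5a2, its scarce paralog, was below the filter and not tested, at 0.0890, 0.508 and 0.441 FPKM in controls (14, 81 and 52 reads) and 1.13, 0.914 and 0.845 in treated samples (256, 203 and 188 reads). Eif6 stood at 50.2, 35.5 and 64.7 FPKM in controls and at 52.0, 52.6 and 51.4 in treated samples, inside the control range (log2 change 0.09, limma adjusted p = 0.739). It was called higher with library size scaling (1.07), quantile normalization (0.82) and the trend removed (0.80).

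Ratios between members of 1 library do not move with a constant factor per library, such as library size scaling. They do move with quantile normalization and trend removal, which act on each gene by its level or sequence. The 10 pairs were chosen after the values were seen and are given as a description, with no test. The groups were apart in 9 pairs and overlapped in 1. No share over other gene pairs was taken, and for single genes the groups did not overlap in 67.7%. Eif4a1 over Eif4a2 was 1.46, 2.05 and 1.36 in controls and 3.13, 3.21 and 3.14 in treated samples. Eif4ebp2 over Eif4e was 0.288, 0.362 and 0.446 in controls and 1.13, 1.06 and 1.06 in treated samples. Both ratios were higher in every treated library.

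Eif4ebp1 over Eif4ebp2 was 9.90, 10.6 and 6.47 in controls and 4.21, 4.41 and 4.10 in treated samples. The log2 fold change of Eif4ebp1 less that of Eif4ebp2 was -1.01 as deposited, -0.37 with quantile normalization and -0.46 with the trend removed. Eif5 over Eif1 was at most 0.0133 in controls and at least 0.0442 in treated samples, and the same difference was 2.01, 0.91 and 0.76. Both differences thus kept their sign but were smaller under these settings. Eif1a over Eif1ax was at most 0.907 in controls and at least 1.21 in treated samples. Eif4g1 over Eif4g2 spanned 1.75 to 3.42 in controls and 1.30 to 1.42 in treated samples. The pair that overlapped was Eif1 over Eif1b, with 15.6, 11.8 and 15.8 in controls and 11.9, 11.6 and 13.4 in treated samples.

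**Figure D3:**
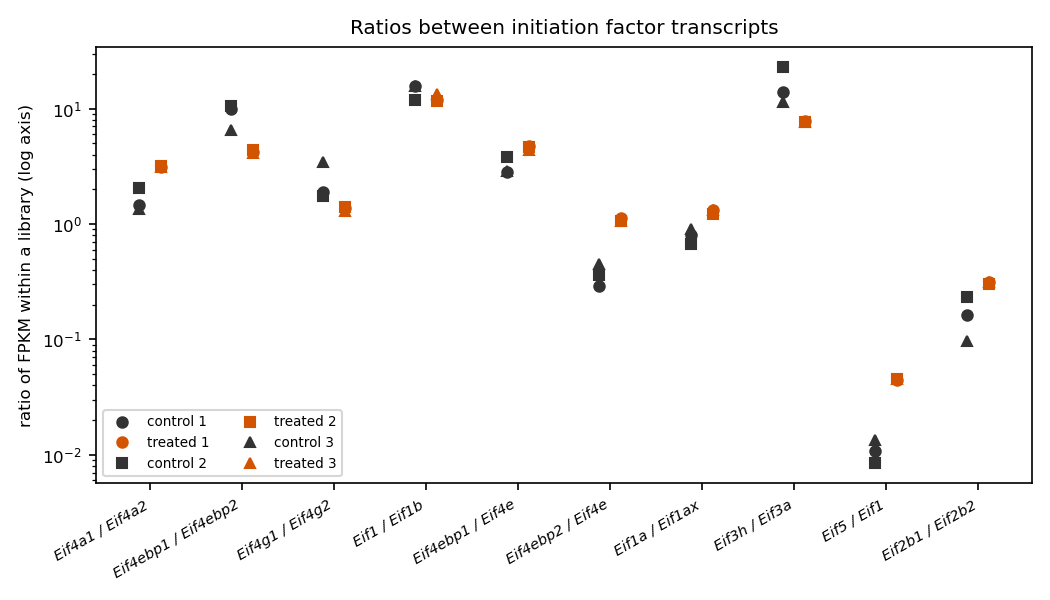
Ratios of FPKM between 10 pairs of members within each library, on a log axis, with controls in black and treated samples in orange. The 3 treated libraries sit apart from the 3 controls in 9 pairs, for example 3.13 to 3.21 against 1.36 to 2.05 for Eif4a1 over Eif4a2, and overlap with them for Eif1 over Eif1b.

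All members together made up 1.31%, 1.37% and 1.07% of the summed FPKM in controls, and 1.26%, 1.26% and 1.31% in treated samples. The groups overlapped in this share. As a share of the summed FPKM, eIF3 genes made up 0.609%, 0.642% and 0.505% in controls and 0.455%, 0.459% and 0.484% in treated samples. The eIF5 group made up 0.0623% to 0.1003% in controls and 0.187% to 0.195% in treated samples. The groups were apart in both shares, eIF3 being lower and eIF5 higher in treated libraries. They were also apart for eIF2B, eIF4A, eIF4E with its binding proteins and eIF6, all higher in treated libraries. Shares of the total follow library size scaling, with which 64.6% of all genes were called higher. No share over other gene groups was taken. Summed FPKM was instead lower for eIF2B, at 98.4 to 108.0 in controls and 84.6 to 91.3 in treated samples. The sums of eIF4A were 399.4 to 500.9 and 324.5 to 354.7. Those of eIF4E with its binding proteins were 178.0 to 255.5 and 153.7 to 162.7. The share of the eIF4B, eIF4G and eIF4H group was lower, and those of eIF1 and eIF2 overlapped. The summed FPKM of the eIF5 group, mostly Eif5a, overlapped, at 331.6 to 451.9 in controls and 441.2 to 470.4 in treated samples. No share was tested.

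**Figure D4:**
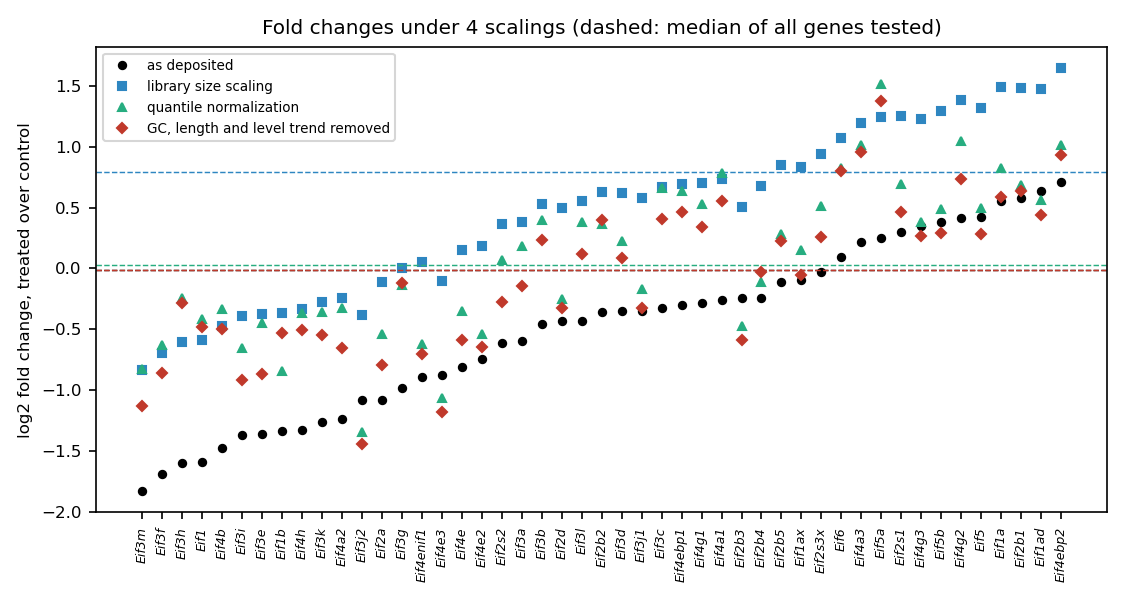
Log2 fold changes of the 47 tested members, ordered by the value on the deposited scale, under 4 scalings, with the median of all genes tested under each as a dashed line of the same colour. With library size scaling the median of all genes is 0.80, and Eif3m, at -0.84, and Eif4ebp2, at 1.65, remain at the ends.

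Around the factors stand regulators of initiation, of which 37 were found by symbol and 36 tested. Of these 12 were lower, 6 higher and 18 not called, so that 18 of 36 were called, beside 56.1% of all genes, with a median log2 fold change of -0.26 on the deposited scale and 0.63 with library size scaling. Impact, an inhibitor of the kinase GCN2, rose from 3.59, 4.30 and 3.00 FPKM in controls to 13.6, 13.6 and 15.0 in treated samples (log2 change 1.71 ± 0.13 SE, limma adjusted p = 0.000353). The kinase PKR, encoded by Eif2ak2, had a transcript 2.48-fold higher, and Ppp1r15b, which directs dephosphorylation of eIF2 alpha, 2.26-fold. Among those that fell, Rps6, a ribosomal protein, was 4.73-fold lower, the poly(A)-binding protein gene Pabpc1 2.74-fold and the eIF5 mimic gene Bzw2 2.46-fold. Beside the initiation factors, 60 of 84 cytosolic ribosomal protein genes tested were lower and 1 higher, with a median of -1.50. Of 10 elongation and release factor genes tested, 5 were lower and 3 higher, with a median of -0.70. Among all genes tested 28.3% were lower and 27.9% higher. In the most abundant class 67.2% were lower, with a median of -0.93. Library size scaling brought the ribosomal and elongation medians to -0.52 and 0.24. Removing the trends with GC content, length and level brought them to -0.30 and -0.17. Differences between the lists were not tested.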

How the data were processed

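RNA from 3 control and 3 treated 4T1 samples was sequenced as paired 150 bp reads from poly-T selected RNA, per the labels' protocols. The authors deposited 1 FPKM value per gene and sample, per the file headers. For aligner, counter, build, annotation and strand setting: not given in the sources used here. Symbols and coordinates came from GENCODE M21 (GRCm38), which may not be the authors' annotation. A symbol was found for 52125 of 56748 identifiers. Reads were recovered from FPKM and GENCODE exon lengths. Of values under 200 reads, 92.5% to 93.4% were whole within 0.02 of a read. All samples share 1 batch label.

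The test was limma 3.58.1 (R 4.3.3) with a trended prior on log2(FPKM + 1), for genes that reached 1 FPKM in 3 or more of 6 libraries, with group as the only term and Benjamini-Hochberg adjustment over all genes tested. Fold changes on this scale understate the change of low genes. Alternatives were a pseudocount of 0.1, no filter, a minimum of 5 FPKM, library size scaling (equal FPKM totals), quantile normalization, removal of trends with GC content, length and level, weights per group, a replicate block and leaving out each library. Values in every sample are given, per factor group, for the called members with the largest rise and fall, the tested member nearest 0 and 16 members fixed by name, and for others as examples. Of the regulators, the 3 largest called rises and falls are named. Members, lists and rules were chosen with earlier results of these data known.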

Additional observations from a re-analysis of the deposited data

How the results depend on the processing

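The calls of initiation factor genes rest on the scaling between libraries. With library size scaling 22 were higher and 5 lower, against 7 and 19 as deposited, and among all genes 7180 were higher and 736 lower, against 3099 and 3141, so that 90.7% of all calls were higher against 49.7%. With quantile normalization 16 members were higher and 8 lower, and the members' median was 0.15. The median was 0.55 with library size scaling and -0.053 with the trend removed. Of 6687 genes that reached 5 FPKM, 1385 were higher and 2516 lower, and of the members 7 and 18. Of the 26 calls, 13, 14 and 17 were shared with library size scaling, quantile normalization and the trend removed, of which 12, 13 and 16 had the same direction. Leaving out 1 library gave 2 to 9 members higher and 15 to 27 lower, with 2279 to 3634 higher and 2140 to 3778 lower among all genes and a member median between -0.44 and -0.33. Same-numbered samples did not deviate together (r of -0.0538, -0.111 and -0.14 across genes), and with the replicate block 2 members were higher and 17 lower, beside 2618 and 2669 of all genes. The cause of these changes was not tested.

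Log2 fold changes that changed sign with library size scaling were 0.84 for Eif1ax, 0.49 for Eif2d, 0.36 for Eif2s2, 0.94 for Eif2s3x, 0.63 for Eif2b2, 0.50 for Eif2b3, 0.68 for Eif2b4, 0.85 for Eif2b5, 0.38 for Eif3a, 0.53 for Eif3b, 0.67 for Eif3c, 0.62 for Eif3d, 0.0059 for Eif3g, 0.58 for Eif3j1, 0.55 for Eif3l, 0.74 for Eif4a1, 0.70 for Eif4g1, 0.15 for Eif4e, 0.19 for Eif4e2, 0.69 for Eif4ebp1 and 0.050 for Eif4enif1. With quantile normalization they were 0.15 for Eif1ax, 0.068 for Eif2s2, 0.51 for Eif2s3x, 0.36 for Eif2b2, 0.28 for Eif2b5, 0.18 for Eif3a, 0.40 for Eif3b, 0.66 for Eif3c, 0.23 for Eif3d, 0.39 for Eif3l, 0.79 for Eif4a1, 0.53 for Eif4g1 and 0.64 for Eif4ebp1. With the trend removed they were 0.26 for Eif2s3x, 0.40 for Eif2b2, 0.22 for Eif2b5, 0.23 for Eif3b, 0.41 for Eif3c, 0.085 for Eif3d, 0.12 for Eif3l, 0.56 for Eif4a1, 0.34 for Eif4g1 and 0.46 for Eif4ebp1. Leaving out 1 library, Eif1ax ranged from -0.32 (without control 3) to 0.062 (control 2), Eif2s3x from -0.35 (control 3) to 0.16 (control 2), Eif2b4 from -0.47 (control 2) to 0.11 (control 3) and Eif6 from -0.13 (control 2) to 0.29 (control 3). Every tested member had at least 82 recovered reads in each library, the fewest in Eif3j2, and such reads bear on counting error only, since PCR copies are not independent molecules.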

Other observations

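Initiation in mitochondria uses separate factors that no Eif symbol covers. Mtif2, a mitochondrial initiation factor gene, had 3.22, 2.94 and 2.67 FPKM in controls and 7.42, 8.31 and 7.63 in treated samples (log2 change 1.16 ± 0.11 SE, limma adjusted p = 0.000486). Mtif3 had 0.785, 0.910 and 1.17 FPKM in controls and 2.44, 2.47 and 2.48 in treated samples. Both were called higher, and in both every treated library lay above every control. Of all genes tested, 27.9% were called higher, and 33.6% had every treated library above every control. In the level classes of Mtif2 and Mtif3, 376 and 461 of 1112 genes were called higher. The enzymes that make hypusine on eIF5A were not called: Dhps had a log2 fold change of 0.07 and Dohh of -1.22, with control values of Dohh spread from 9.35 to 37.0 FPKM.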
